A study of Strongylocentrotus purpuratus with 17 samples.

Results

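A set of 5956 genomic regions was called as transcribed regulatory elements in purple sea urchin embryos (Strongylocentrotus purpuratus) at 8 h and at 20 h of development but not at 12 h or 72 h. They were found by joining the 4 deposited element lists, 1 each for 8 h, 12 h, 20 h and 72 h, and merging elements that overlapped by at least 1 bp on the same scaffold. A merged region was present at a stage where an element of that stage's list overlapped it. This gave 75451 regions, of which the 5956 made up 7.89%. They are called 8/20 regions here, after the stages that list them. The regions were chosen by their presence or absence in the 4 lists, so their absence at 12 h is a description and not a finding, and nothing below tests it.

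PRO-seq labels the RNA that engaged RNA polymerases extend in isolated nuclei, and so maps transcription in progress. dREG is a classifier that reads such maps and marks promoters and enhancers alike, because polymerases start in both directions around active elements of both kinds. Promoters lie at the start of genes, while enhancers can lie inside genes or far from them and act on promoters at a distance. In sea urchin embryos such elements carry the gene regulatory networks that set up the skeleton, gut, ectoderm and pigment cells.

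The lists rest on 13 libraries from whole embryos labelled Wild and grown at 15 °C. The 8 h list has 2 libraries from 1 biological replicate, the 12 h list 4 libraries from 3, the 20 h list 5 libraries from 4 and the 72 h list 2 libraries from 2. Libraries of the 12 h and 20 h stages come from earlier work and were taken up again in this series, and stages were taken from the sample titles because the tissue label names the 8 h stage throughout. Another 4 libraries were not used here: 2 made by quick PRO-seq from 72 h embryos and 2 from red spherule cells, the pigmented cells of the adult's coelomic fluid. The lists hold 56158, 30570, 37796 and 4425 elements at 8 h, 12 h, 20 h and 72 h, with positions only, so depth is unknown. Each stage has 1 pooled list, so there is no replicate error and no test between stages. The 95% Wilson intervals given below cover counting error only. In whole embryos, use of an element in fewer cells and weaker use in each cell cannot be told apart.

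The 8/20 regions held 6014 elements of the 8 h list, or 10.7% of it, and 6039 elements of the 20 h list, or 15.98% of it. Regions listed at 8 h, 12 h and 20 h numbered 12726, those at 8 h alone 26248, and those at 20 h alone 12639. The opposite arrangement, listed at 12 h alone, gave 5234 regions. Regions listed at 12 h with 1 neighbour only numbered 6642 at 8 h and 12 h and 1664 at 12 h and 20 h. Regions with a 12 h element and 1 neighbour stage were thus fewer than the 8/20 regions on the 20 h side and more numerous on the 8 h side.

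The 8 h and 20 h elements of an 8/20 region covered largely the same stretch of DNA. In 5821 of the 5956 regions (97.7%) there was exactly 1 element from each list. The shorter element lay wholly within the longer in 3157 regions (53.0%), beside 62.5% in regions listed at 8 h, 12 h and 20 h. A median of 75.5% of the longer element was covered (interquartile range 61.4 to 86.0%), beside 75.6% in regions listed at 8 h, 12 h and 20 h. The midpoints of the 8 h and 20 h elements were a median of 70 bp apart, beside 75 bp in those regions. At 88 regions (1.48%) the elements overlapped by 100 bp or less, beside 70 (0.55%) of those regions. Of those 70, 34 had no direct overlap and were joined through a 12 h element. Regions joined at their edges were thus a small share of the 8/20 regions, but a larger one than among regions with a 12 h element as well.

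Elements in 8/20 regions were narrower than those in the regions listed at 8 h, 12 h and 20 h. The 8 h element had a median width of 640 bp (interquartile range 530 to 780 bp) in 8/20 regions and 850 bp in regions at all of 8 h, 12 h and 20 h. The 20 h element was 590 bp (500 to 730 bp) in 8/20 regions and 700 bp in the others. Elements called at a single stage were narrower again at 8 h, with a median of 550 bp, and at 20 h, with 560 bp. Among the 5821 8/20 regions with 1 element from each list, the 8 h element was the wider in 3282 (56.4%) and the 20 h element in 2418 (41.5%). Among the 12038 such regions at 8 h, 12 h and 20 h, the 8 h element was the wider in 69.8%. As merged regions, the 8/20 regions had a median width of 760 bp (620 to 950 bp), against 1020 bp (810 to 1310 bp) in regions at 8 h, 12 h and 20 h. Regions of 2 neighbouring stages were no wider than the 8/20 regions, with a median of 720 bp both at 8 h and 12 h and at 12 h and 20 h.

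The 5 widest 8/20 regions were each more than 2 kb long. The widest, 2310 bp at 11628851 to 11631160 of scaffold NW_022145604.1, joined 1 element at 8 h to 3 at 20 h at an end of LOC591463. The next were 2300 bp at 843041 to 845340 of NW_022145563.1 and 2300 bp at 21075311 to 21077610 of NW_022145610.1. The others were 2240 bp at 694991 to 697230 of NW_022145605.1 and 2120 bp at 19026041 to 19028160 of NW_022145611.1. Coordinates are on the Sp 5.0 genome and count from 1.

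Genes were taken from RefSeq's annotation of the same assembly, Spur_5.0. The table gives each gene a start and an end but no scaffold and no strand, so scaffolds were inferred for 30064 of 33490 genes on 21 scaffolds. A gene end below means 500 bp either side of the lower or upper end of a gene, which takes in starts and stops alike. Of the 8/20 regions, 5598 (94.0%) lay on these scaffolds.

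Most 8/20 regions lay away from gene ends. A gene end was overlapped by 1310 of them, or 23.4% (95% interval 22.3 to 24.5%), beside 23.6% of all regions on the 21 scaffolds. Another 2003 (35.8%, 34.5 to 37.0%) lay inside genes away from their ends, and 2285 (40.8%, 39.5 to 42.1%) between genes. Regions at 8 h, 12 h and 20 h lay at gene ends in 47.1% (46.2 to 48.0%). The other regions of 2 stages did so in 20.1% at 8 h and 12 h and 22.8% at 12 h and 20 h, and regions at 8 h alone and at 20 h alone in 12.7% and 12.0%. The share for 8/20 regions was thus close to that of all regions. Among patterns without 72 h, it was close to the other regions of 2 stages, with single-stage regions below and 3-stage regions above. The small patterns with 72 h did not follow this order. Regions at 72 h alone had 28.5%, and 2-stage regions with 72 h ran from 21.9% (20 h and 72 h) to 47.1% (12 h and 72 h). The median distance from an 8/20 region to the nearest gene end was 4460 bp, beside 1432 bp for regions at 8 h, 12 h and 20 h, 5366 bp at 8 h alone and 5658 bp at 20 h alone.

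**Figure D1:**
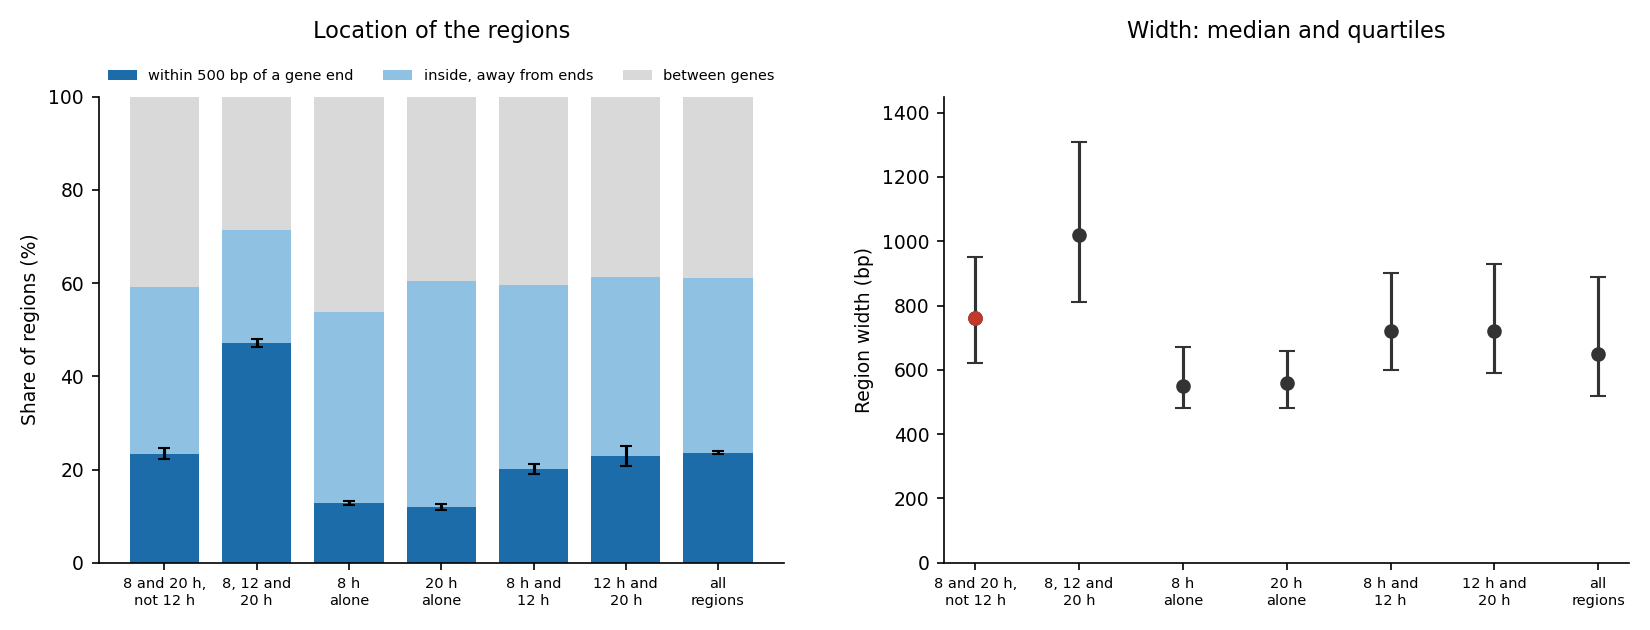
Location and width of regions by the stages that list them. The stacked bars give the percent of regions on the 21 scaffolds at a gene end, inside a gene or between genes, and the width panel gives medians with interquartile ranges in bp. Error bars on the gene-end shares are 95% Wilson intervals, and the 8/20 regions have 23.4% at gene ends and a median width of 760 bp.

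The same relation can be read from the 12 h side. Of 22520 regions listed at both 8 h and 20 h, whatever the 72 h list held, 6129 (27.2%, 26.6 to 27.8%) had no 12 h element. At gene ends 14.2% (13.5 to 14.9%) had none, inside genes 38.4% and between genes 37.5%. The 8 h element was also wider at gene ends, so regions were divided into 5 classes by its width. In the narrowest class, 320 to 600 bp, 54.5% had no 12 h element, and in the next classes 37.6%, 23.7% and 12.6%. In the widest class, 1200 to 3590 bp, 5.63% had none. Within every width class the share was lower at gene ends than elsewhere: 43.2% against 58.5% in the narrowest and 3.04% against 13.2% in the widest. Regions that the 72 h list also held lacked a 12 h element in 4.51% (173 of 3838), and the others in 31.9%. By scaffold the share ran from 23.8% on NW_022145614.1 to 34.5% on NW_022145598.1, with a median of 27.2%.

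**Figure D2:**
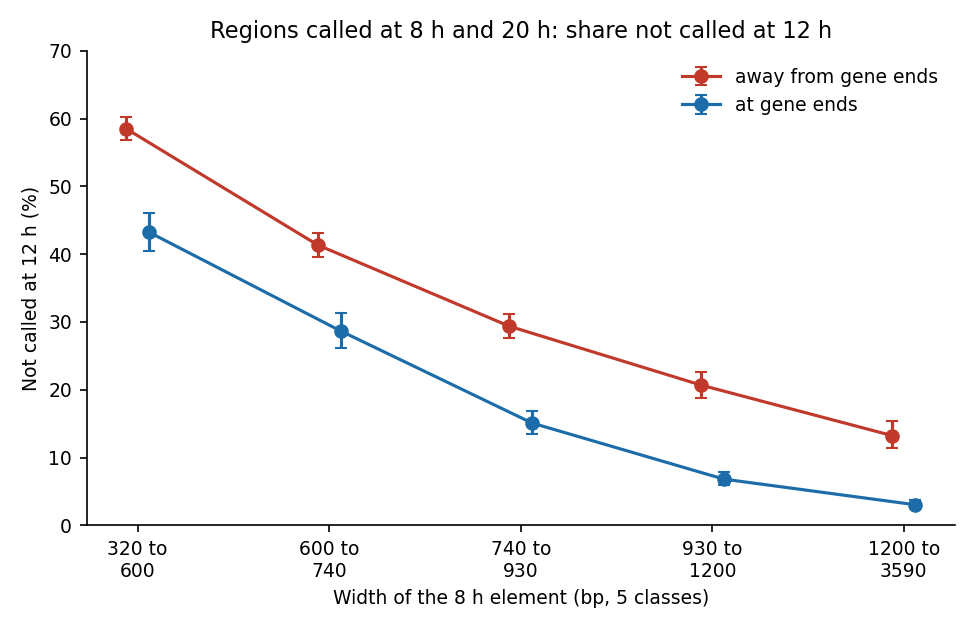
Percent of regions at 8 h and 20 h with no 12 h element, by width class of the 8 h element in bp, for gene ends and for other places. Error bars are 95% Wilson intervals; the share falls from 43.2% to 3.04% at gene ends and from 58.5% to 13.2% elsewhere.

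Regions of a pair of stages could also lack an element of another stage than 12 h. The 20 h stage also has a list on either side, and 84 of 3819 regions at 12 h and 72 h (2.2%) had no 20 h element. That share covers only regions of the 72 h list. Among regions of that list at 8 h and 20 h, 173 of 3838 (4.51%) had no 12 h element. Of 23099 regions at 8 h and 12 h, 6708 (29.0%) had no 20 h element. Of 18125 regions at 12 h and 20 h, 1734 (9.57%) had no 8 h element, the longest list. The lists differ in length and in libraries, and the part of either in these shares was not tested.

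A 12 h element seldom lay within 1 kb of an 8/20 region, and about as seldom within 1 kb of a region at 20 h alone. The nearest was a median of 7135 bp away, beside 10000 bp for regions at 8 h alone and 7350 bp for those at 20 h alone. It lay within 1 kb of 663 of the 8/20 regions, 11.1% (10.4 to 12.0%), and within 10 kb of 60.1%. Regions at 8 h alone had one within 1 kb in 8.21% and within 10 kb in 50.01%. At 20 h alone 10.95% had one within 1 kb and 59.9% within 10 kb. In these measures the 8/20 regions were near the regions at 20 h alone. At the edge of the choice, 60 of the 8/20 regions had a 12 h element 100 bp or less away, with a median 8 h element of 615 bp and 20 of 56 placed regions at a gene end. Just outside it, 18 regions had a 12 h element that overlapped the 8 h and 20 h stretch by 100 bp or less, with a median 8 h element of 580 bp and 7 of 18 at a gene end.

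**Figure D3:**
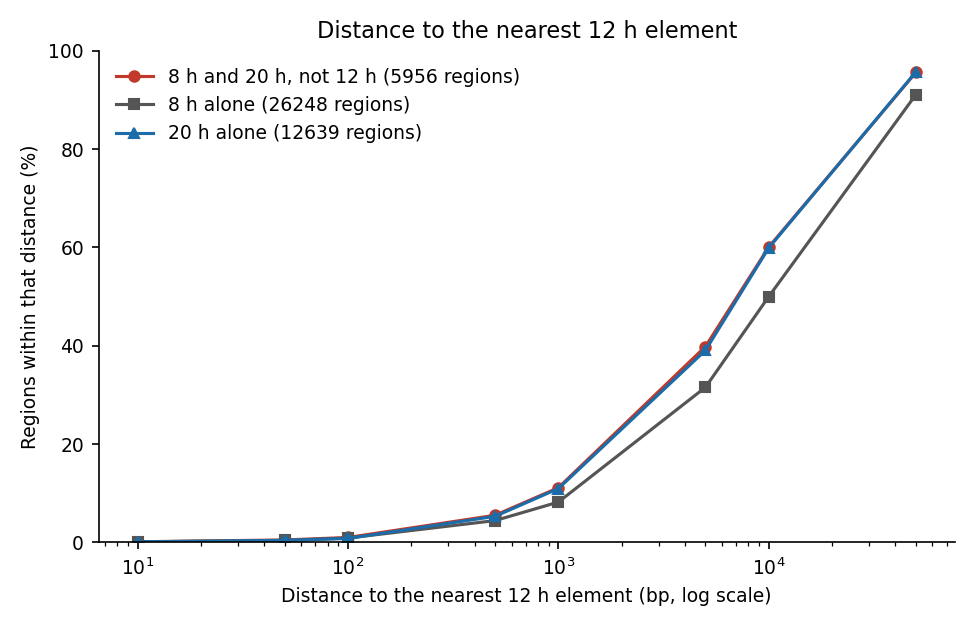
Cumulative percent of regions against the distance to the nearest 12 h element (bp, log axis). The 8/20 regions, with a median of 7135 bp, run close to the regions at 20 h alone (7350 bp) and above those at 8 h alone (10000 bp).

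Some 8/20 regions lay in close groups. Another 8/20 region lay within 10 kb of 27.2% (26.1 to 28.3%) of them. The same figure was 37.3% among the more numerous regions at 8 h, 12 h and 20 h, 52.7% at 8 h alone, 52.2% at 20 h alone and 21.0% at 8 h and 12 h. Of the 11899 nearest regions on either side of an 8/20 region, 10.9% (10.4 to 11.5%) were 8/20 regions too, beside 7.90% over all neighbours. Regions at 20 h alone made up 20.9%, beside 16.8% over all neighbours, and regions at 8 h alone 30.3%, beside 34.7%. Regions at 8 h, 12 h and 20 h made up 16.9% in both.

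The densest stretch of 8/20 regions lay between IrxA, an Iroquois homeobox transcription factor gene, and LOC575096, which was the nearer. At 5958291 to 5991250 of NW_022145614.1, 8 of the 13 regions in 32.96 kb were 8/20 regions, 660 to 1100 bp wide. The 8 h list held 8 elements there, the 12 h list 0, the 20 h list 13 and the 72 h list 0. Every one of the 8 lay between genes, starting 15.203 kb above the upper end of IrxA and ending 2.698 kb below LOC575096, and the nearest 12 h element was 2.13 to 17.11 kb away. IrxA itself, at 5923802 to 5943087, had 1 further 8/20 region within 10 kb.

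Among the other dense stretches, 8 of 23 regions in 43.69 kb at 26832451 to 26876140 of NW_022145605.1 were 8/20 regions. The nearest gene was LOC576476, 5.742 kb away, and on the other side Tbx2/3, a T-box transcription factor gene, was 57.051 kb away. That stretch held 14, 6, 24 and 3 elements at 8 h, 12 h, 20 h and 72 h. At 12564771 to 12610770 of NW_022145601.1, 8 of 14 regions were 8/20 regions, with 11, 0, 11 and 0 elements in the same order. At 21062421 to 21109920 of NW_022145600.1 there were 7 of 10, and at 26177281 to 26225340 of NW_022145602.1 there were 7 of 18. The stretches on NW_022145601.1 and between IrxA and LOC575096 were the ones among these 5 with 0 elements at 12 h.

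Within 10 kb of a protein-coding gene, body included, 5258 of 24774 genes (21.2%) had at least 1 8/20 region by its midpoint. Of these, 4233 had 1, 811 had 2, 162 had 3, 45 had 4, 6 had 5 and 1 had 6. Counted over genes, 7.81% of all regions there were 8/20 regions. Genes with one were longer, with a median of 14628 bp against 9263 bp for genes without. The stretch searched includes the gene body, so it is longer for longer genes, and the part of length was not tested. Among genes with 1 to 3 regions 12.8% had an 8/20 region, among those with 4 to 6 30.9%, and among those with at least 7 52.0%. The gene with 6, LOC589156, had 9, 1, 12 and 0 elements at 8 h, 12 h, 20 h and 72 h, and is named for that count after it was seen.

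The genes of the developmental lists had 8/20 regions more often than protein-coding genes as a whole, and also more regions in all, 579 for 82 genes beside 83992 for 24774. Of 82 listed genes, 46 (56.1%) had one, beside the 21.2% above. Their 76 counted 8/20 regions, 74 distinct, were 13.1% of 579 regions, beside 7.81% over all protein-coding genes. By the classes of region number above, 3 of 11 (27.3%) listed genes with 1 to 3 regions had one. With 4 to 6 regions 16 of 29 (55.2%) did, and with at least 7, 27 of 42 (64.3%). Region numbers were not held equal within a class. With at least 7, the 42 listed genes had 414 regions and the 2735 protein-coding genes 24242. The lists are incomplete here, because a listed gene could be used only where the annotation carries its symbol. Of the listed symbols, 16 of 27 skeletogenic, 4 of 11 pigment cell and mesoderm, 9 of 17 endoderm, 14 of 22 ectoderm, 6 of 14 apical and 7 of 14 early zygotic ones were placed. So were 8 of 19 signalling, 15 of 31 homeobox, 7 of 13 immune, 9 of 14 gamete, 3 of 8 histone and 3 of 14 cell cycle symbols. The listed genes carry names, as few genes of this annotation do. Of all 249 protein-coding genes with an informative name, 95 (38.2%) had an 8/20 region, and 10.5% of their regions were such. By the same classes of region number, in order, 17.4%, 39.2% and 56.25% of these named genes had one. No test was run on any list.

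**Figure D4:**
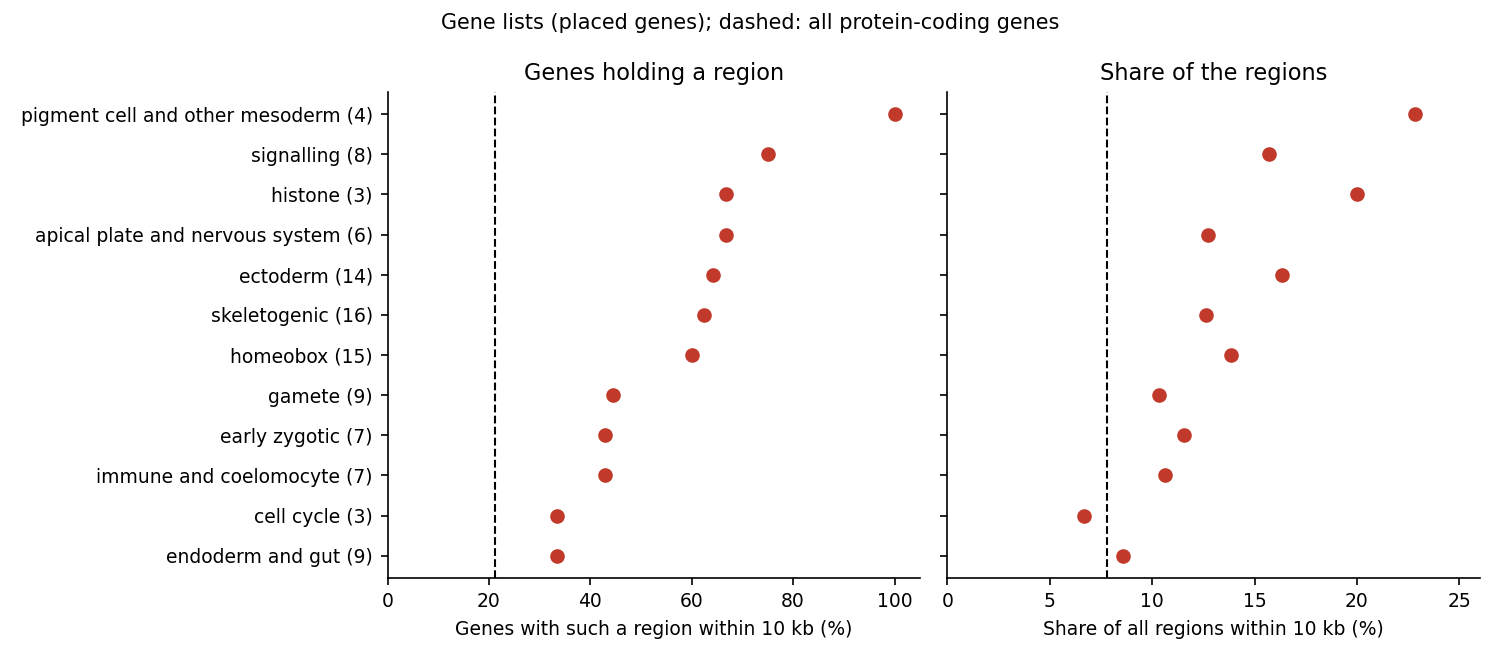
The 8/20 regions near the genes of 12 lists, with dashed lines for all protein-coding genes. The left panel gives the percent of placed genes with such a region within 10 kb (dashed, 21.2%). The right panel gives the percent of regions within 10 kb that were 8/20 regions (dashed, 7.81%). Shares of regions run from 6.67% for the cell cycle genes to 22.9% for the pigment cell and mesoderm genes, and lists share genes.

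The 4 pigment cell and mesoderm genes placed, of 11 listed, each had an 8/20 region, with a median of 1.5 a gene, and 8 of their 35 regions (22.9%) were such. GATAc, a zinc-finger transcription factor of the nonskeletogenic mesoderm, had 4 of 17. They lay inside the gene, which spans 11500266 to 11556165 of NW_022145612.1. The 4 regions were 11517881 to 11518690, 11526671 to 11527210, 11528851 to 11529370 and 11531311 to 11532270. The neighbourhood of GATAc held 5, 2, 17 and 0 elements at 8 h, 12 h, 20 h and 72 h, so that 4 of the 5 elements at 8 h were in 8/20 regions. gcm, the regulator of pigment cell fate, had 2 of 8 regions, with 6, 3, 6 and 0 elements at the 4 stages in order. prox1, a homeobox transcription factor gene, had 1 of 3.

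**Figure D5:**
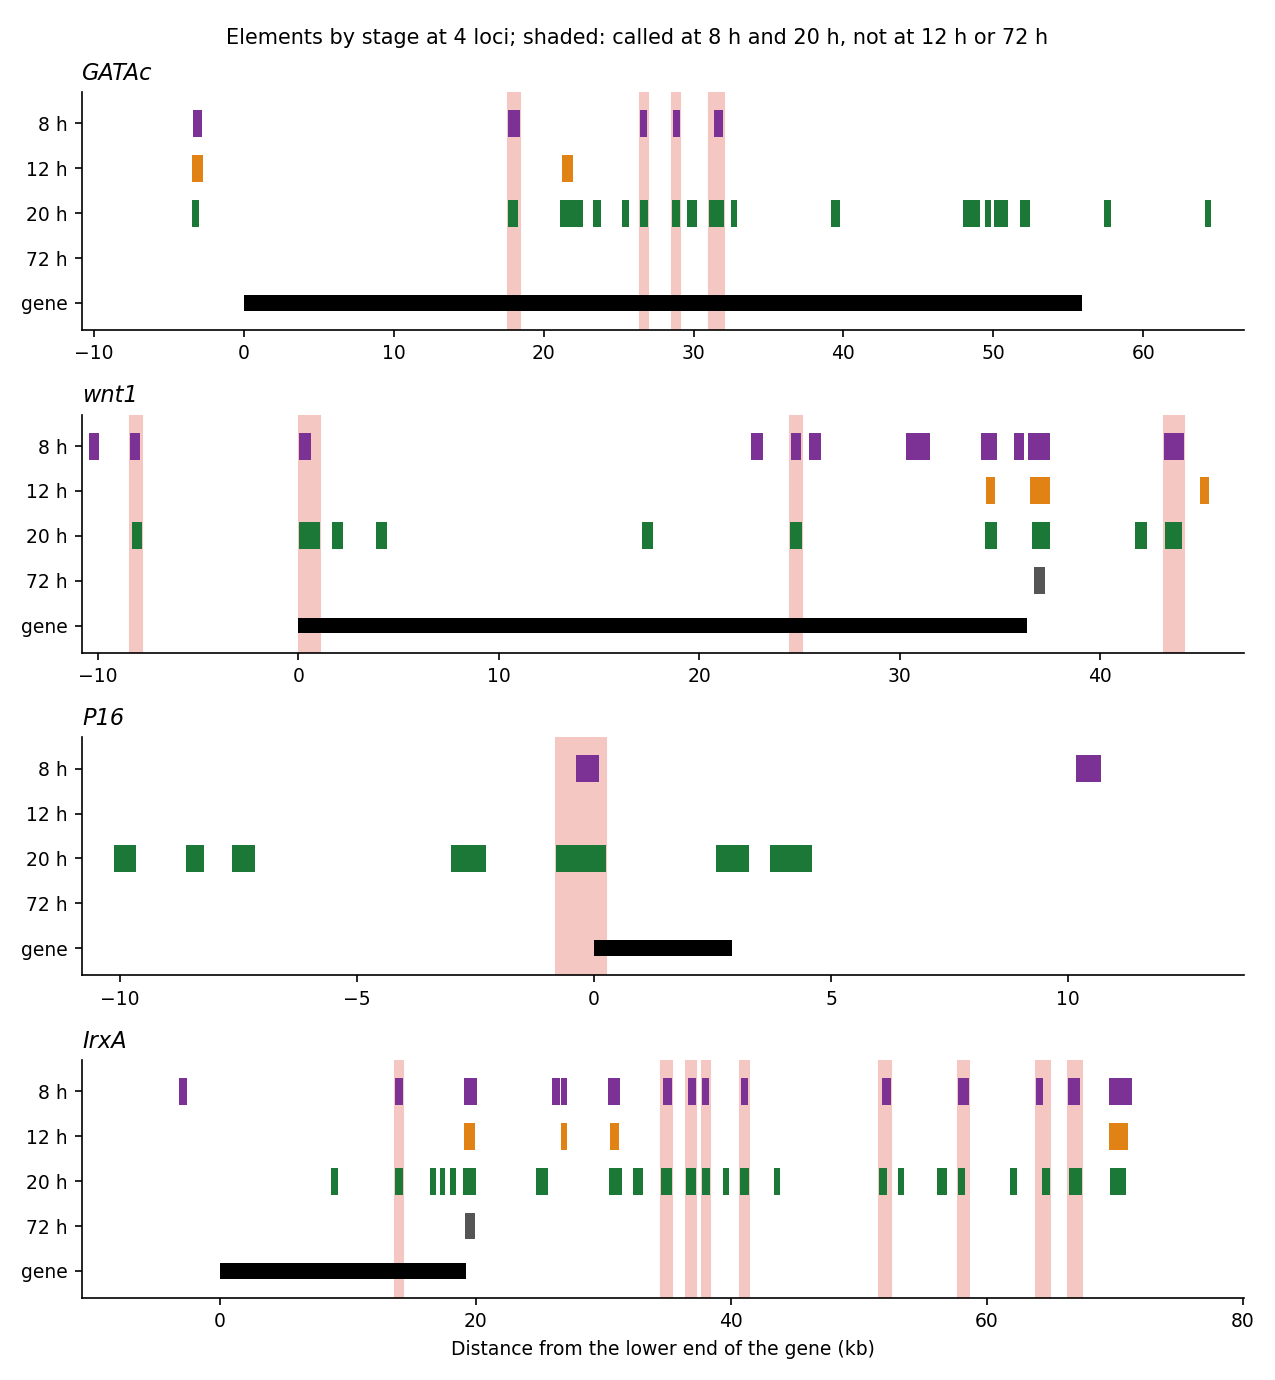
Elements by stage at GATAc, wnt1, P16 and IrxA, against distance from the lower end of the gene in kb, with 8/20 regions shaded. The shaded regions number 4 at GATAc, 4 at wnt1 and 1 at P16, and at IrxA 1 within the gene and 8 in the dense stretch above it.

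Of 16 skeletogenic genes, 10 had an 8/20 region, 14 of 111 regions (12.6%), with a median of 1 a gene. Among the regulators, the ETS-family genes erg and ets1 had 2 of 4 and 2 of 9, and dri, an ARID-domain transcription factor gene, had 2 of 10. Alx1 had 0 of 11 and snail 0 of 2 within 10 kb, and 2 and 1 8/20 regions within 50 kb. erg had 4, 1, 2 and 0 elements and ets1 had 6, 4, 6 and 1 at 8 h, 12 h, 20 h and 72 h. Among the effectors, msp130, a surface glycoprotein of the skeletogenic cells, had 2 of 4 regions, with 3, 2, 2 and 0 elements. The collagen genes COLP1alpha and COLP2alpha shared 1 region between them, at 37431401 to 37432040 of NW_022145612.1, with a 12 h element 600 bp away. The collagen genes COLP4alpha and COLP3alpha had 1 of 15 and 0 of 9, and SM30A had 0 of 2.

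Both P16 and SM37 had an 8/20 region over their lower end and no 12 h element within 10 kb. Of all 24774 protein-coding genes, 7132 had no 12 h element within 10 kb. P16, whose product is a transmembrane protein of skeletogenic cells that takes part in biomineralization, lies at 10667000 to 10669900 of NW_022145615.1. Its 8/20 region, 10666201 to 10667260, had an 8 h element of 480 bp and a 20 h element of 1060 bp, and the nearest 12 h element was 54900 bp away. The neighbourhood of P16 held 2, 0, 7 and 0 elements. SM37, a spicule matrix protein gene at 7428916 to 7430654 of NW_022145602.1, had its region at 7428371 to 7429130, with elements of 670 bp at 8 h and 760 bp at 20 h. The nearest 12 h element was 10580 bp away, and the neighbourhood held 2, 0, 5 and 0 elements. SM50 and PM27, spicule matrix genes on either side of SM37, had no 8/20 region within 10 kb and 2 each within 50 kb. Their 12 h elements within 10 kb numbered 3 and 1.

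Ectoderm genes had an 8/20 region in 9 of 14 cases, 17 of 104 regions (16.3%), with a median of 1.5. Dlx, a homeobox gene, had 3 of 14, with 7, 4, 13 and 3 elements at the 4 stages. In 1 of its 3, at 55306421 to 55307750 of NW_022145612.1, the 8 h and 20 h elements shared only 14.7% of the longer. Tbx2/3 had 2 of 16, both inside the gene. BMP2/4, a ligand that patterns the dorsal-ventral axis, had 2 of 8, and Gsc, a homeobox repressor of the oral ectoderm, 2 of 7. The homeobox genes HMX and Msx had 2 of 6 and 1 of 6. Among genes of the aboral ectoderm's Spec family of calcium-binding proteins, spec2c had 2 of 6 and spec2d 2 of 7, and SPEC1 had 0 of 6. spec2d had 8, 0, 2 and 0 elements, so no 12 h element lay within 10 kb of it, as for 7132 of 24774 protein-coding genes. ARS had 0 of 9 regions, Lim1 0 of 5, Not 0 of 3 and Nk1 0 of 1.

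Of 9 endoderm genes 3 had an 8/20 region, 6 of 70 regions (8.57%), with a median of 0 a gene. GATAe, a zinc-finger transcription factor gene of the endomesoderm, had 3 of 11, with 7, 2, 9 and 1 elements at 8 h, 12 h, 20 h and 72 h. Wnt8, a Wnt ligand gene, had 2 of 10, and hh, the Hedgehog ligand gene, 1 of 4. Endo16, FoxA, eve, lox, hnf6 and blimp1/krox had 0 within 10 kb, though blimp1/krox had 13 regions and FoxA 8. Within 50 kb FoxA had 5, eve 3, Endo16 and blimp1/krox 1 each, and lox and hnf6 0. The list's share of regions within 10 kb, 8.57%, was close to the 7.81% over all protein-coding genes.

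Of 6 apical and neural genes 4 had an 8/20 region, 7 of 55 regions (12.7%). FoxJ1, a forkhead regulator of motile cilia, had 2 of 9, soxd1 2 of 15, otx, a homeobox gene, 2 of 14, and NK2.1, an apical plate homeobox gene, 1 of 4. SoxB1 and SoxB2 had 0 within 10 kb, and 1 and 5 within 50 kb.

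Among 7 early zygotic genes 3 had an 8/20 region, 6 of 52 regions (11.5%). wnt1, a Wnt ligand gene at 36696972 to 36733344 of NW_022145613.1, had 4 of 15, with 10, 3, 10 and 1 elements. The 4 lay at 36688581 to 36689160, 36696981 to 36698050, 36721531 to 36722090 and 36740191 to 36741150. The second of them lay at the lower end of the gene and the third lay inside it, while the outer 2 lay on either side. SpRunt-1, a Runx-family gene, had 1 of 10 and delta, the Notch ligand gene, 1 of 8.

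Of 8 signalling genes 6 had an 8/20 region, 8 of 51 regions (15.7%). Besides the ligand genes BMP2/4, Wnt8, hh and delta, these were FGF with 1 of 5 and DVR1, a TGF-beta family gene, with 1 of 6. The receptor genes FGFR and FGFRL1 had 0 of 8 and 0 of 2 within 10 kb, and 3 and 1 8/20 regions within 50 kb. The homeobox list had 9 of 15 genes and 14 of 101 regions (13.9%), and the genes not named above included hox1 with 1 of 4.

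Among immune genes 3 of 7 had an 8/20 region, 5 of 47 regions (10.6%). duox1, a dual oxidase gene, had 3 of 12, with 8, 7, 9 and 1 elements. The complement gene c3 had 1 of 8, which lay inside the gene with the nearest 12 h element 40300 bp away, and SRCR12, a scavenger receptor gene, had 1 of 6. Of 9 gamete genes 4 had one, 6 of 58 regions (10.3%): the genes rej2 and REJ9 of the receptor for egg jelly family had 2 each, and REJ5 and REJ8 1 each. REJ9 had 6, 0, 2 and 1 elements. Of 3 histone genes 2 had one, 3 of 15 regions (20.0%): H4 had 2 and H2A 1. Those histone genes are neighbours and their neighbourhoods overlap. The H2A region, 1911 to 2370 of NW_022145597.1, was also 1 of the 2 at H4, so it was counted for both genes. Of 3 cell cycle genes cdk4 had 1 of 3, so the list had 1 of 15 regions (6.67%).

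Among genes not matched to the lists by symbol, those with the most 8/20 regions included SpP19L with 3 of 8 and sfk3 with 3 of 9. SPIH had 3 of 9 and FSCN1 3 of 12. The skeletogenic list includes P19, to which SpP19L was not matched, so the skeletogenic counts above leave SpP19L out. SPIH encodes a hyperpolarization-activated ion channel of sperm, sfk3 a Src-family kinase and FSCN1 the actin-bundling protein fascin. SpP19L had 6, 2, 7 and 1 elements at the 4 stages, sfk3 8, 1, 5 and 0, SPIH 7, 1, 6 and 0, and FSCN1 7, 6, 11 and 2. AnkAT-1 and sia4 each had 2 of 4, and SFE1, a fertilization envelope gene, had 2 of 5.

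At gene ends, 1222 of 24774 protein-coding genes (4.93%) had an 8/20 region. In 1069 of these, 4.32% of protein-coding genes, no 12 h element overlapped either gene end. The other kinds of gene with an 8/20 region at an end included 85 of 3231 lncRNA genes (2.63%), 34 of 954 tRNA genes (3.56%), 6 of 256 snRNA genes and 2 of 53 miRNA genes. None of the 182 rRNA genes or the 101 snoRNA genes had one.

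Of the 1258 placed genes with an informative name, 39 had an 8/20 region at an end and no 12 h element at either end. They shared 29 regions. The 8 protein-coding genes were rej2, sia4, ano10, P16, SHR3, SPCA, SM37 and SPIH, with regions of 600 to 1200 bp. They were 8 of 249 protein-coding genes with an informative name, beside 4.32% of all protein-coding genes. The region at rej2, 5978471 to 5979670 of NW_022145603.1, had elements of 1200 bp at 8 h and 1050 bp at 20 h, with a 12 h element 630 bp away. The region at sia4, 26425651 to 26426850 of NW_022145600.1, had 1200 bp at 8 h and 600 bp at 20 h. The region at ano10, an anoctamin gene, was 8519531 to 8520700 of NW_022145614.1, with 1120 bp at 8 h, 1010 bp at 20 h and the nearest 12 h element 12500 bp away. The regions at SHR3 and SPCA, a secretory pathway calcium pump gene, were 960 and 940 bp wide.

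Both miRNA genes with such a region are covered by it. The region at Mir375, 21884481 to 21885440 of NW_022145604.1, had an 8 h element of 960 bp and a 20 h element of 630 bp, and the nearest 12 h element was 4400 bp away. The region at Mir96, 25937681 to 25938170 of NW_022145612.1, was narrower, with 480 bp at 8 h and 450 bp at 20 h. The other 29 genes were tRNA genes in 19 regions. The aspartate tRNA genes among them were 8 in 4 regions, the lysine tRNA genes 4 in 4 and the threonine tRNA genes 3 in 1. tRNA genes are copied many times in the genome and are transcribed by RNA polymerase III, and how reads were shared between copies is not given in the sources used here.

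Finally, 1679 protein-coding genes had elements at 8 h and 20 h but 0 at 12 h within 10 kb. Of these, 1025 (61.0%) had an 8/20 region. They were picked by the same lists as the regions, so this share is a description and cannot be read against the 21.2% of all protein-coding genes. Among those with an informative name, 8 of 12 had one: REJ9, spec2d, P16, SM37, ano10, hh and, named for this count after it was seen, gnrhr2 and gpc-6. gnrhr2 had 4, 0 and 1 elements and gpc-6 2, 0 and 1 at 8 h, 12 h and 20 h.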

How the data were processed

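The deposited files were dREG peak lists, 1 per stage, which per the labels belong to all PRO-seq libraries of the stage and are on the Sp 5.0 genome. The submitters' processing notes name the same build. Which aligner was run, how dREG was set and how libraries were combined is not given in the sources used here. The lists as deposited by the authors hold 3 columns, scaffold, start and end, in steps of 10 bp, with no score.

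Regions were merged at 1 bp of overlap in python 3.11.15 with pandas 2.3.3. Runs of at least 900 genes with increasing start were assigned to whichever scaffold had the most gene ends lying within 500 bp of a 12 h element. That list holds no 8/20 region. The share was 12.3 to 28.3%, against 5.12 to 8.40% on the next scaffold, and the 8 h list gave the same scaffold for 21 of 21 runs. In pieces of 100 genes, 258 of 288 went to their run's scaffold. The steps were tested on simulated lists.

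A region counted for a gene by its midpoint within 10 kb. Genes named are list genes with an 8/20 region, the 15 named protein-coding genes with the most, up to 20 named genes with one at an end and none at 12 h, and the 5 densest windows and widest regions. Regions, lists and rules were chosen with earlier results of these data known. Sequences and motifs were not analysed here. The values of 1 list gene are not reported here.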

Additional observations from a re-analysis of the deposited data

How the results depend on the processing

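No paired analysis was possible because each list pools the libraries of its stage and has no column per replicate, and leaving out a replicate could not be run for the same reason. Joining elements that touch end to end, chosen after seeing the data, gave 5951 regions, and over all alternatives the number was 4434 to 6136. The gene-end share of 23.4% was 21.3% with 250 bp windows, 28.05% with 1000 bp windows, 27.5% without the narrowest 25% of each list and 19.6% by midpoint. The share with a 12 h element within 1 kb, 11.1%, was 5.52% within 500 bp, 39.8% within 5 kb and 8.64% without the narrowest 25%. The share with another 8/20 region within 10 kb, 27.2%, was 17.3% within 5 kb, 61.2% within 50 kb and 25.6% between midpoints. The 5258 genes were 2338 by the gene body alone and 12454 within 50 kb. The overlap of 75.5% was 100% for the shorter element. The gene-end share stayed below that of regions at 8 h, 12 h and 20 h and above that at 8 h alone in 6 of 6 alternatives. In the gene body alone, a setting chosen after seeing the data, 32.9% of listed genes had an 8/20 region, beside 9.44% of protein-coding genes, and within 50 kb 81.7%, beside 50.3%. Of the 15 named genes with the most 8/20 regions, 11 had any in the gene body alone, where erg, msp130, H4 and SFE1 had 0, and 14 had any without the narrowest 25% of each list, where duox1 had 0. All 15 had at least 2 within 50 kb. Widths and absences rest on called positions, with depth unknown and 1 list a stage.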

Other observations

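A further 173 regions were listed at 8 h, 20 h and 72 h and not at 12 h. Of the 166 on the 21 scaffolds, 58 (34.9%) lay at a gene end. Their elements had median widths of 670 bp at 8 h, 720 bp at 20 h and 530 bp at 72 h.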
